A study of Mus musculus with 10 samples.

Results

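The RNA made from the mitochondrial genome was examined in the hearts of mice whose knockout lay in another tissue, the fat. Its members were taken by name: every row of the expression table whose symbol starts with mt-, which gave 34 of 11790 genes. They comprised 13 mRNAs, 2 rRNAs and 19 tRNAs. The annotation lists 37 genes on the mouse mitochondrial genome, and the remaining 3, all tRNAs (mt-Tf, mt-Th and mt-Tk), were not analysed here. Hearts came from 5 A-PDK1KO mice, which lack 3-phosphoinositide-dependent kinase 1 (PDK1, gene Pdpk1) in adipocytes, and from 5 PDK1 flox/flox mice used as controls. PDK1 is a kinase that activates AKT downstream of the insulin receptor. All mice were 10 to 11 weeks old and were not fasted before collection. The sources used here do not give the Cre driver of the knockout, the sex of the mice or the library kit, including any removal of rRNA. Levels are in FPKM, which corrects the fragments counted on a gene for its length and for the size of the library.

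The mitochondrial genome is a small circle that is transcribed from both strands into long precursor RNAs. In these precursors tRNAs lie between most of the rRNAs and mRNAs, and cutting out the tRNAs releases the other transcripts. The mRNAs encode the core membrane subunits of respiratory complexes I, III and IV and of ATP synthase, and the rRNAs form the mitochondrial ribosome that translates them. Heart muscle is rich in mitochondria, and these transcripts are a large part of its RNA.

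Each library held 9249256 to 11384423 counted reads. Mitochondrially encoded rows took 41.5, 34.3, 40.4, 36.1 and 39.2% of them in the A-PDK1KO hearts and 40.4, 37.5, 37.8, 32.7 and 39.2% in the control hearts. The lowest 2 shares came from control replicate 4 and A-PDK1KO replicate 2, which also had the most genes at 1 FPKM or more, 10214 and 10723, against 9671 to 10064 in the other hearts. Markers of heart muscle cells were abundant in every heart, with a sum of 12004 to 13806 FPKM in A-PDK1KO and 12702 to 15313 FPKM in control hearts, and 0 of 8 was called. Atrial markers summed to 184 to 268 FPKM in A-PDK1KO and 214 to 579 FPKM in control hearts. Red blood cell markers summed to 68.6 to 228 FPKM in A-PDK1KO and 27.9 to 1391 FPKM in control hearts. The 5 endothelial, 6 fibroblast, 5 smooth muscle and pericyte and 5 macrophage markers also held 0 calls. Of the adipocyte markers only Cfd had a row, at 0 to 1.36 FPKM in A-PDK1KO and 0 to 1.11 FPKM in control hearts. Pdpk1 itself averaged 3.46 ± 0.51 FPKM in A-PDK1KO and 3.55 ± 0.26 FPKM in control hearts (SD, n = 5 each; exact two-sided permutation p = 0.714), which is no check of a deletion made in adipocytes.

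The summed level of mitochondrially encoded RNA was close between the groups, while its make-up differed. FPKM are relative to each library, so no amount per heart or per cell was measured. Per FPKM of the other rows, haemoglobin left out, the level was 1.30 ± 0.14 in A-PDK1KO and 1.21 ± 0.12 in control hearts, with overlap. The mitochondrially encoded rows summed to 301567 ± 24524 FPKM in A-PDK1KO hearts and 293367 ± 22544 FPKM in control hearts (SD, n = 5 each), and the groups overlapped. Of that sum, the rRNAs made up 5.06, 4.23, 5.38, 5.32 and 4.82% in the A-PDK1KO hearts and 7.87, 7.16, 7.90, 5.84 and 7.24% in the control hearts. Every A-PDK1KO heart lay below every control heart, with control replicate 4 the nearest. The group means were 4.96 ± 0.46% in A-PDK1KO and 7.20 ± 0.84% in control hearts, a difference of -2.24 percentage points. The mRNAs took up the balance, at 93.5 ± 0.43% in A-PDK1KO and 91.1 ± 0.85% in control hearts, again without overlap. The tRNAs stood at 1.54 ± 0.23% in A-PDK1KO and 1.65 ± 0.15% in control hearts, which overlapped. No test was made of these sums, because a sum over chosen members has no background of its own. In whole heart tissue, fewer cells of a type and less RNA per cell cannot be told apart.

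Each row was tested in a linear model (limma) of log2(FPKM + 1) over all 9987 genes that averaged 1 FPKM or more, with p adjusted over all of them by the Benjamini-Hochberg method and a call at an adjusted p under 0.05. A fold change is the A-PDK1KO mean minus the control mean on that log2 scale, where changes of low genes come out too small, and its error is a standard error (SE). Of the 34 mitochondrially encoded rows 33 passed the filter. The model called 1 of 33, mt-Atp6, which rose, against 2.08% of all genes tested (121 of 9987 higher and 87 lower). The members' median fold change was 0.12 and that of all genes tested 0.02, and 23 of the 33 lay above 0. At an unadjusted p under 0.05 there were 11 of 33 members, 5 higher and 6 lower, against 15.6% of all genes. The groups did not overlap for 1 member, mt-Atp6, against 4.96% of all genes. The same model was then fitted after dividing every gene by the heart's mitochondrially encoded sum, so that a member is tested as a share of that sum. In that fit 3 of 33 members were called, against 0.279% of all 10018 genes tested: mt-Rnr2 and mt-Rnr1 fell and mt-Atp6 rose. Over all genes the share called went from 2.08% to 0.279% with the division. Members are parts of the sum they were divided by and other genes are not, so 0.279% is no like background for them.

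**Figure D1:**
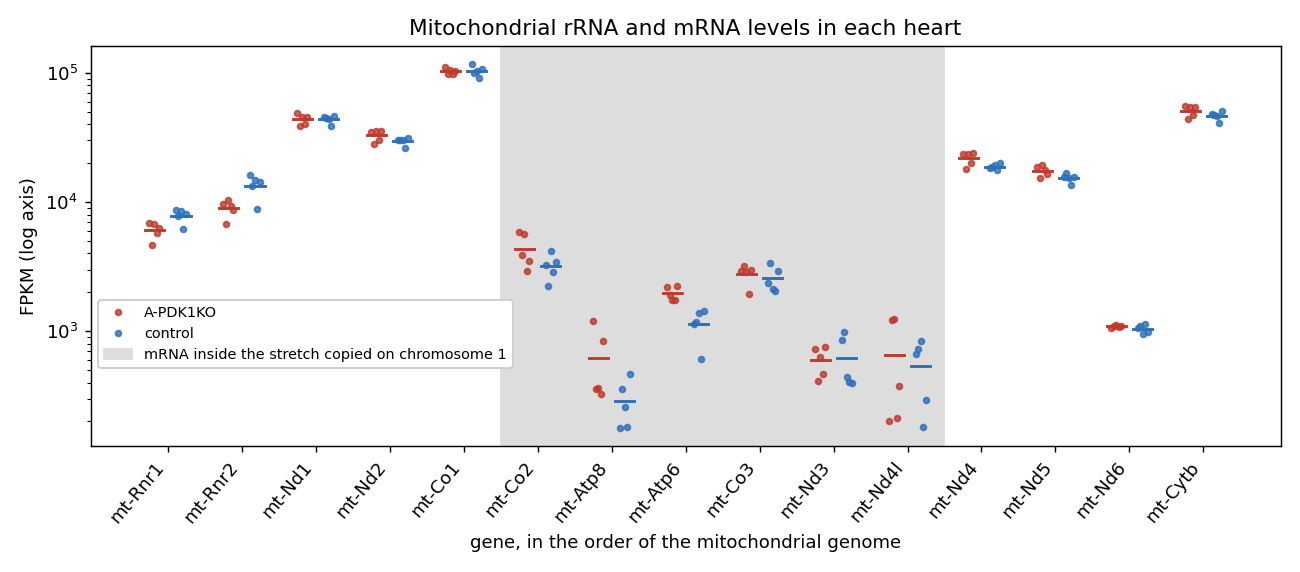
Level of each mitochondrial rRNA and mRNA in each heart, in FPKM on a log axis, with genes in the order of the mitochondrial genome. Points are hearts (5 A-PDK1KO, 5 control) and lines are group means; the shaded mRNAs lie wholly in a stretch that has a near-identical copy on chromosome 1, and their control means, 288 to 3183 FPKM, lie below those of mt-Nd1, mt-Nd2, mt-Co1, mt-Nd4, mt-Nd5 and mt-Cytb.

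The rRNAs were the class whose share differed most for its size, and mt-Rnr2 alone differed by -1.58 percentage points of the mitochondrially encoded sum. mt-Rnr1 (chrM:70-1024 in mm10, ENSMUSG00000064337) encodes the 12S rRNA of the small mitochondrial ribosomal subunit. It measured 6928, 4629, 6780, 5720 and 6300 FPKM in the A-PDK1KO hearts and 8654, 7802, 8591, 6132 and 8043 FPKM in the control hearts. All A-PDK1KO hearts lay below 4 of the 5 control hearts, and the groups overlapped only through control replicate 4. Its log2 fold change was -0.37 ± 0.12 (SE; limma adjusted p = 0.147), short of a call.

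mt-Rnr2 (chrM:1094-2675, ENSMUSG00000064339) encodes the 16S rRNA of the large subunit. It measured 9635, 6814, 10374, 9252 and 8645 FPKM in the A-PDK1KO hearts and 16075, 13210, 14826, 8807 and 14184 FPKM in the control hearts. Once more 4 control hearts stood above every A-PDK1KO heart, and control replicate 4 fell among the A-PDK1KO values. The log2 fold change was -0.57 ± 0.15 (limma adjusted p = 0.0836). It was called in 3 of 23 alternatives: without control replicate 4 (-0.71, adjusted p = 0.0185), without both control replicate 4 and A-PDK1KO replicate 2 (adjusted p = 0.0204), and by the count test on recovered reads, limma voom (adjusted p = 0.0408). The removal of both hearts was chosen after seeing the data, and mt-Rnr1 then had an adjusted p of 0.0423. In the other 9 fits with 1 heart left out the adjusted p of mt-Rnr2 was 0.104 to 0.188, and in the 6 hearts with Myl7 under 10 FPKM it was 0.459.

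As shares of the mitochondrially encoded sum the rRNAs separated the groups. mt-Rnr2 took 2.95, 2.52, 3.25, 3.29 and 2.79% in the A-PDK1KO hearts and 5.12, 4.50, 5.00, 3.44 and 4.62% in the control hearts. mt-Rnr1 took 2.12, 1.71, 2.13, 2.03 and 2.03% in the A-PDK1KO hearts and 2.76, 2.66, 2.90, 2.40 and 2.62% in the control hearts. No A-PDK1KO heart reached the lowest control heart for either rRNA. Scaled to that sum, mt-Rnr2 fell by 0.61 ± 0.10 on the log2 scale (SE; limma adjusted p = 0.0184) and mt-Rnr1 fell by 0.41 ± 0.08 (limma adjusted p = 0.0285). The call of mt-Rnr2 held in all 15 alternatives of that fit, each heart left out in turn included, with adjusted p between 0.00145 and 0.0443. These 15 alternatives were not among the planned ones. They left out the hearts with Myl7 under 10 FPKM, limma voom and the other pseudocount and filters, which were not run on this scale. Leaving out 1 heart at a time ended the call of mt-Rnr1 in 6 of 10 fits (A-PDK1KO replicates 1, 2 and 5 and control replicates 1, 2 and 3; adjusted p up to 0.102). Groups did not overlap in share for 5 members in all, mt-Rnr1, mt-Rnr2, mt-Tl1, mt-Nd2 and mt-Atp6, against 1.61% of all genes tested on this scale. That percentage was 4.96% in the deposited FPKM. It is no like background for the members, which are parts of the sum that every gene was divided by.

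**Figure D2:**
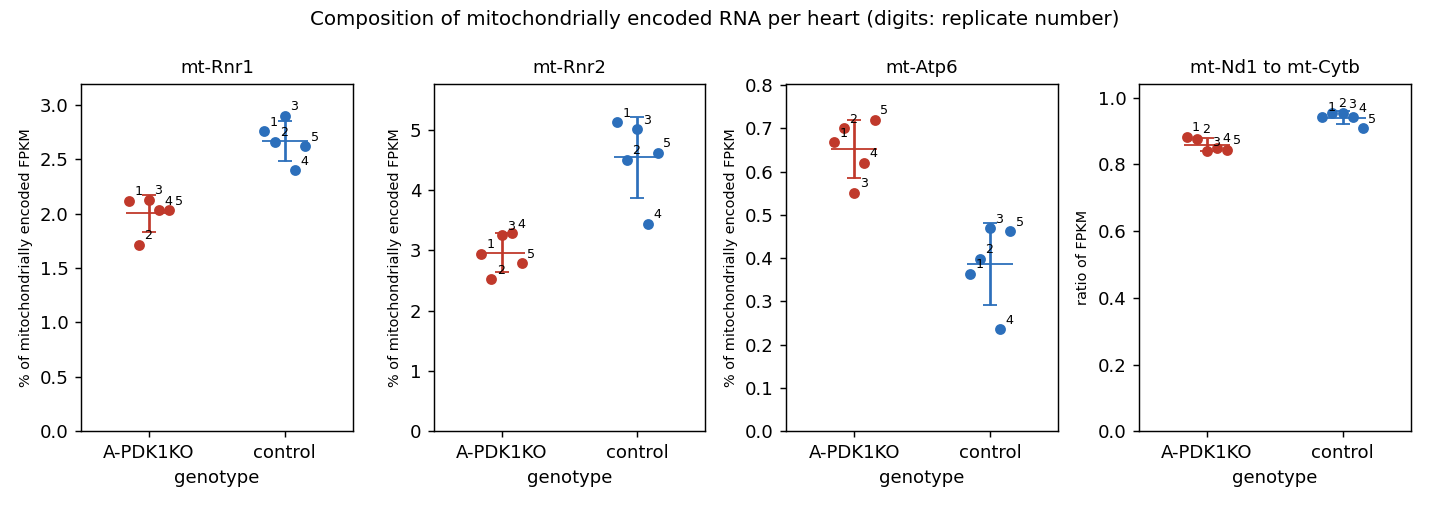
Composition of the mitochondrially encoded RNA in each heart: mt-Rnr1, mt-Rnr2 and mt-Atp6 as a percentage of the mitochondrially encoded FPKM sum, and the ratio of mt-Nd1 to mt-Cytb FPKM. Points are hearts with their replicate number, lines and bars are mean ± SD (n = 5 each). In each panel the groups do not overlap, and control replicate 4 is the lowest control heart in the first 3.

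The difference was of like size against a smaller base, the 5 mRNAs with no copy on chromosome 1. These averaged 48.5% of the mitochondrially encoded sum in A-PDK1KO and 46.6% in control hearts, so a like size was partly built in. Set against the 5 mRNAs with no copy on chromosome 1 (mt-Nd1, mt-Nd2, mt-Nd5, mt-Nd6 and mt-Cytb), the summed rRNA level was 0.102 ± 0.0087 in A-PDK1KO and 0.155 ± 0.021 in control hearts (ratio of FPKM sums, SD, n = 5 each), without overlap. Scaled to the sum of those mRNAs, a scaling chosen after seeing the data, mt-Rnr2 fell by 0.67 on the log2 scale (limma adjusted p = 0.00884) and mt-Rnr1 fell by 0.47 (limma adjusted p = 0.0123). The ratio of mt-Rnr2 to mt-Rnr1 was 1.39, 1.47, 1.53, 1.62 and 1.37 in the A-PDK1KO hearts and 1.86, 1.69, 1.73, 1.44 and 1.76 in the control hearts. All control hearts except replicate 4 lay above every A-PDK1KO heart, and no test was made of this ratio. rRNA is a main target of the removal or poly(A) selection steps of library kits, and the part of such a step in these values was not tested.

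The mt-Rnr2 gene runs directly into mt-Tl1, the leucine tRNA that follows it, so the boundary at which the precursor is cut has no spacer. The end of the rRNA and the whole tRNA are shown because both had lower means in A-PDK1KO hearts.
mt-Rnr2, last 60 bases (chrM:2616-2675, + strand): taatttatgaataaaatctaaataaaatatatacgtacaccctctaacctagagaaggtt
mt-Tl1, whole gene (chrM:2676-2750, + strand): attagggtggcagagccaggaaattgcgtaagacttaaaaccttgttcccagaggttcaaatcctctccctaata

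ATP synthase, which makes ATP from the proton gradient, has 2 mitochondrially encoded subunits, and both had higher means in A-PDK1KO hearts. mt-Atp6 (chrM:7927-8607, ENSMUSG00000064357) encodes subunit a, which forms the proton path through the membrane. It measured 2185, 1894, 1758, 1748 and 2231 FPKM in the A-PDK1KO hearts and 1142, 1170, 1390, 604 and 1421 FPKM in the control hearts. Every A-PDK1KO heart stood above every control heart, and control replicate 4 was the lowest of all. The means were 1963 ± 231 FPKM in A-PDK1KO and 1145 ± 327.8 FPKM in control hearts (SD, n = 5 each), and mt-Atp6 rose by 0.83 ± 0.19 on the log2 scale (SE; limma adjusted p = 0.0487). The call stood close to the threshold and ended in 9 of 10 fits with a heart left out, all except the one without control replicate 4 (adjusted p 0.0185 to 0.117). As a share of the mitochondrially encoded sum mt-Atp6 made up 0.652 ± 0.068% in A-PDK1KO and 0.386 ± 0.095% in control hearts, without overlap, and rose by 0.79 ± 0.15 on the log2 scale (limma adjusted p = 0.0285). That call was lost without A-PDK1KO replicate 1, 2 or 5 or control replicate 1 (adjusted p up to 0.0742), and with robust variances (0.0649).

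mt-Atp8 (chrM:7766-7969, ENSMUSG00000064356) encodes the small subunit A6L and shares its last 43 bases with the start of mt-Atp6, so reads there cannot be given to one of them. It measured 1190, 354, 365, 325 and 844 FPKM in the A-PDK1KO hearts and 179, 356, 257, 181 and 467 FPKM in the control hearts. The mean difference rested on A-PDK1KO replicates 1 and 5, while the other 3 A-PDK1KO hearts lay within the control values. Its log2 fold change was 0.98 ± 0.38 (limma adjusted p = 0.226).

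The 6 mRNAs mt-Co2, mt-Atp8, mt-Atp6, mt-Co3, mt-Nd3 and mt-Nd4l lie wholly within a stretch of the mitochondrial genome, chrM:6390-11042, that has a near-identical copy in the nuclear genome at chr1:24611535-24616188 on the minus strand. Nuclear copies of this kind are insertions of mitochondrial DNA into a chromosome. Across the annotated parts of the copy, 4140 aligned bases held 2 mismatches and 0 gaps. mt-Co1 lies inside it with its last 483 bases and mt-Nd4 with its first 876. The annotated copies are Gm29216 of mt-Co1, Gm28661 of mt-Co2, Gm10925 of mt-Atp6, Gm28437 of mt-Co3, Gm28438 of mt-Nd3, Gm10222 of mt-Nd4l and Gm28439 of mt-Nd4, and all 7 had rows of their own in the table. mt-Atp6 and its copy are printed with capitals for the bases that mt-Atp6 shares with mt-Atp8, and they are identical. For mt-Nd3 and mt-Co1 the capital marks the base that differs, T3C in mt-Nd3 and A1066T in mt-Co1, with the mitochondrial base first and positions counted from 1 at the gene's 5′ end.
mt-Atp6, first 60 bases (chrM:7927-7986, + strand): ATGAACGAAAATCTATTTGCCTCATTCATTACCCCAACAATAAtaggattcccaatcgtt
Gm10925, first 60 bases (chr1:24614592-24614651, - strand): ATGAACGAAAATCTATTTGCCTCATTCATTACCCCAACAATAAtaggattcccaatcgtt
mt-Nd3 (chrM:9459-9481, + strand): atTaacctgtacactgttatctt
Gm28438 (chr1:24613097-24613119, - strand): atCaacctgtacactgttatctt
mt-Co1 (chrM:6390-6413, + strand): ggaAttgttttatccaactcatcc
Gm29216 (chr1:24616165-24616188, - strand): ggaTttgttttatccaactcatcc

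A fragment that falls wholly in such a stretch matches both places, and the sources used here do not say how reads with several matches were counted. The mRNAs inside the stretch varied more between hearts than those outside it. They also had lower levels than the mRNAs outside it, except mt-Nd6, whose means lay below those of mt-Co2, mt-Co3 and mt-Atp6. Means inside the stretch lay between 597 and 4358 FPKM in A-PDK1KO and 288 and 3183 FPKM in control hearts, against 1088 to 51090 FPKM in A-PDK1KO and 1045 to 46667 FPKM in control hearts for the 5 mRNAs outside it. Their coefficients of variation were 11.8 to 82.0% in A-PDK1KO and 22.3 to 53.2% in control hearts, against 1.56 to 10.54% in A-PDK1KO and 6.29 to 8.15% in control hearts outside it. The part of the copy in these levels was not tested beyond adding the reads of each gene and its annotated copy, which mt-Atp8 lacks. With that sum, chosen after seeing the data, mt-Atp6 measured 3552, 3028, 2848, 2606 and 3672 FPKM in the A-PDK1KO hearts and 2695, 2273, 2104, 1645 and 2311 FPKM in the control hearts. A-PDK1KO replicate 4 then lay below control replicate 1, and the other hearts stayed apart. The log2 fold change became 0.52 with a limma adjusted p of 0.0595, so the call of mt-Atp6 ended. The copy Gm10925 alone averaged 1183 ± 234 FPKM in A-PDK1KO and 1065 ± 315 FPKM in control hearts (log2 fold change 0.18 ± 0.19, limma adjusted p = 0.722), and 0 of the 7 copies was called.

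**Figure D3:**
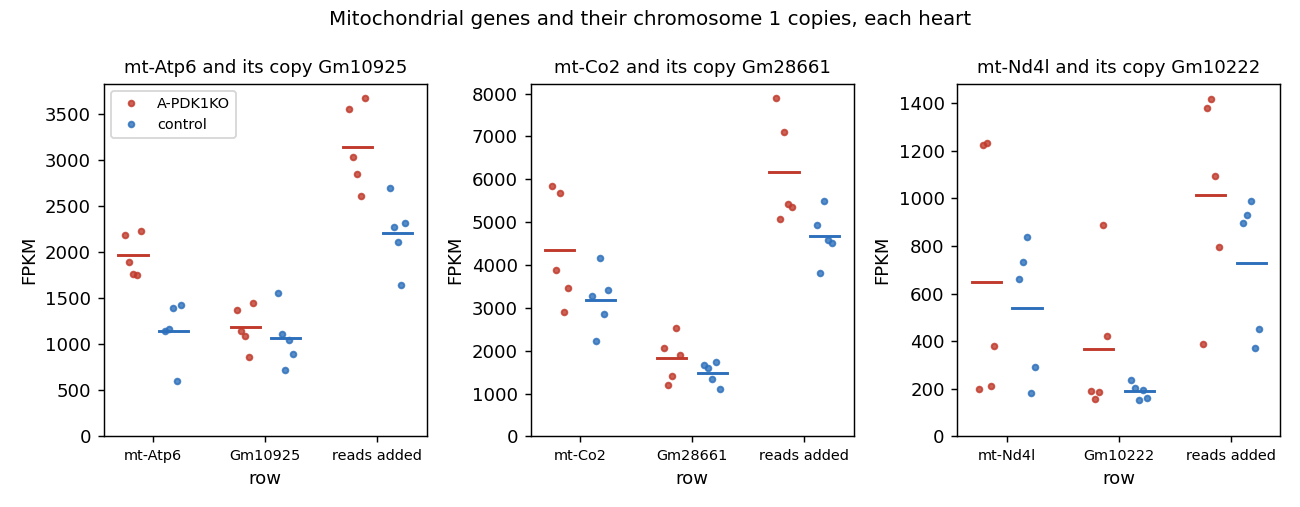
FPKM of mt-Atp6, mt-Co2 and mt-Nd4l, of their chromosome 1 copies Gm10925, Gm28661 and Gm10222, and of gene and copy with their reads added. Points are hearts (5 A-PDK1KO, 5 control) and lines are group means on linear axes; the mt-Atp6 groups are apart as separate rows and overlap once the reads are added, at 3141 ± 457 FPKM in A-PDK1KO and 2206 ± 381 FPKM in control hearts (SD).

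Complex I, the NADH dehydrogenase at the entry of the respiratory chain, has 7 mitochondrially encoded subunits, and 0 of their mRNAs was called. mt-Nd1 and mt-Nd2, which encode membrane subunits and are neighbouring mRNA genes, were the most abundant of them. mt-Nd1 averaged 43865 ± 4402 FPKM in A-PDK1KO and 43854 ± 2973 FPKM in control hearts (SD, n = 5 each). mt-Nd2 measured 34802, 27911, 35299, 30444 and 35668 FPKM in the A-PDK1KO hearts and 30027, 29992, 29952, 26408 and 31385 FPKM in the control hearts. The mt-Nd2 groups overlapped, with A-PDK1KO replicates 2 and 4 among the control values, and the log2 fold change was 0.15 ± 0.08 (limma adjusted p = 0.416). As a share of the mitochondrially encoded sum mt-Nd2 lay between 10.33 and 11.5% in A-PDK1KO and 9.56 and 10.32% in control hearts, with the nearest hearts of the groups almost equal, and it was not called on that scale (adjusted p = 0.730).

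mt-Nd4 and mt-Nd5, the proton-pumping antiporter-like subunits with mt-Nd2, had slightly higher means in A-PDK1KO hearts. mt-Nd4 averaged 21895 ± 2682 FPKM in A-PDK1KO and 18825 ± 930 FPKM in control hearts (log2 fold change 0.21 ± 0.08, limma adjusted p = 0.251). mt-Nd5 averaged 17532 ± 1624 FPKM in A-PDK1KO and 15405 ± 1256 FPKM in control hearts (log2 fold change 0.19 ± 0.08, limma adjusted p = 0.288). Both had an unadjusted p under 0.05, of 0.0276 for mt-Nd4 and 0.0371 for mt-Nd5, and in both the groups overlapped. mt-Nd6 is the only mRNA among the members that is read from the other strand. Its values were the steadiest of all mRNAs in A-PDK1KO hearts, at 1064, 1090, 1112, 1083 and 1089 FPKM, against 1067, 1089, 951, 1135 and 986 FPKM in control hearts. It shares 14 bases with the end of mt-Nd5, and no strand setting of the counting is given in the sources used here, so reads of mt-Nd6 cannot be told apart from antisense RNA of the other strand.

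The complex I mRNAs inside the copied stretch varied most. mt-Nd4l measured 201, 1222, 1234, 214 and 379 FPKM in the A-PDK1KO hearts and 663, 731, 839, 181 and 291 FPKM in the control hearts. Neither group held together: A-PDK1KO replicates 2 and 3 were the highest of all hearts, and control replicate 4 was the lowest. With the reads of its copy Gm10222 added, A-PDK1KO replicate 4 stood at 1092 FPKM, since that heart had 888 FPKM on the copy against 154 to 420 FPKM in the other 9. mt-Nd3 averaged 597 ± 156 FPKM in A-PDK1KO and 617 ± 282 FPKM in control hearts (log2 fold change 0.03 ± 0.27, limma adjusted p = 0.979).

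Complex III passes electrons to cytochrome c and has 1 mitochondrially encoded subunit, cytochrome b. Its mRNA mt-Cytb was second in abundance among all mRNAs, at 51090 ± 5154 FPKM in A-PDK1KO and 46667 ± 3529 FPKM in control hearts (SD, n = 5 each; log2 fold change 0.13 ± 0.08, limma adjusted p = 0.504). mt-Nd1 lies next to the rRNA genes and mt-Cytb is the last mRNA of that strand, and their ratio was tight within each group. The ratio of mt-Nd1 to mt-Cytb was 0.883, 0.877, 0.840, 0.850 and 0.844 in the A-PDK1KO hearts and 0.943, 0.955, 0.954, 0.941 and 0.909 in the control hearts. The groups did not overlap, and the means were 0.859 ± 0.020 in A-PDK1KO and 0.940 ± 0.019 in control hearts. This ratio was picked after values were seen and is a description with no test. The ratio of mt-Nd6 to mt-Cytb was 0.0215 ± 0.0023 in A-PDK1KO and 0.0226 ± 0.0032 in control hearts, with overlap.

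Complex IV, cytochrome c oxidase, has 3 mitochondrially encoded subunits, and 0 of 3 mRNAs was called. mt-Co1 encodes the subunit that holds the oxygen-reducing centre and was the most abundant transcript of all members, at 102690 ± 5318 FPKM in A-PDK1KO and 103588 ± 9157 FPKM in control hearts. mt-Co2 encodes the subunit that takes electrons from cytochrome c. It measured 5848, 3878, 5679, 2914 and 3473 FPKM in the A-PDK1KO hearts and 3278, 2222, 4154, 2857 and 3407 FPKM in the control hearts. A-PDK1KO replicates 1 and 3 stood above all control hearts and the rest overlapped (log2 fold change 0.43 ± 0.20, limma adjusted p = 0.336). mt-Co3, the third core subunit, averaged 2782 ± 491 FPKM in A-PDK1KO and 2565 ± 572 FPKM in control hearts (log2 fold change 0.12 ± 0.16, limma adjusted p = 0.777).

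**Figure D4:**
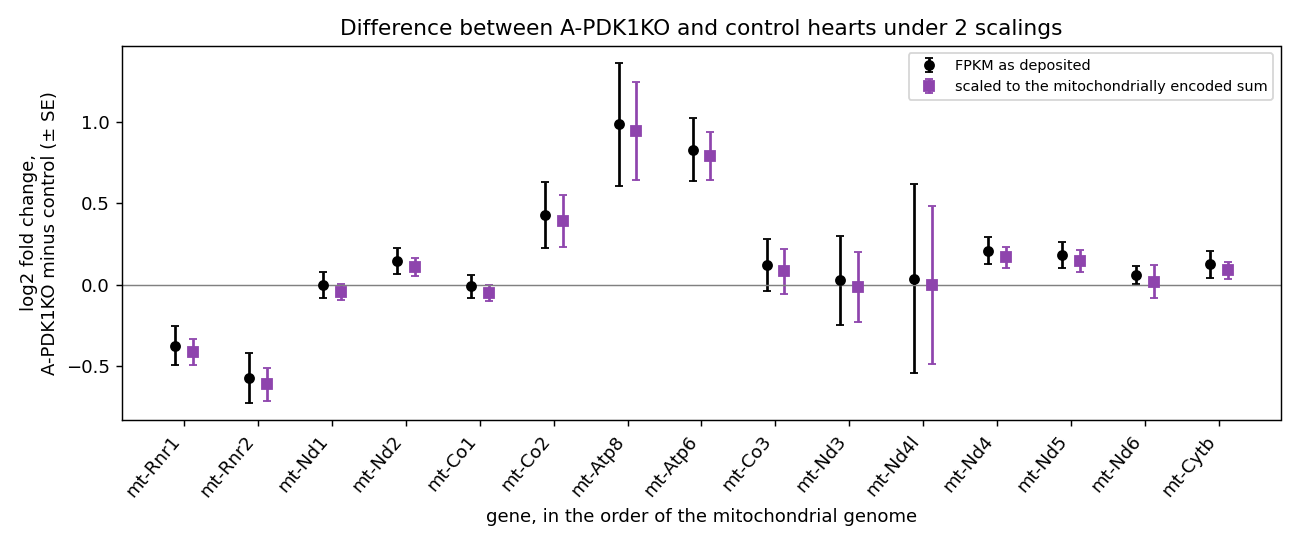
Log2 fold change (A-PDK1KO minus control) of each mitochondrial rRNA and mRNA with its standard error, from limma on log2(FPKM + 1) for the deposited FPKM and for values divided by each heart's mitochondrially encoded sum. The rRNAs lie below 0 on both scales (mt-Rnr2 at -0.57 and -0.61), mt-Atp8 and mt-Atp6 lie highest, and mt-Nd4l has the widest error.

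tRNAs carry amino acids to the mitochondrial ribosome, and as folded molecules of 59 to 75 bases they are poorly caught by standard libraries. The 19 tRNA rows held 0 to 1365 reads per heart each. Of 18 tested 0 were called by limma or by limma voom, and 5 had an unadjusted p under 0.05, with 4 lower (mt-Tl1, mt-Ti, mt-Tm and mt-Tg) and mt-Te higher. mt-Tw, the tryptophan tRNA, was the most abundant, at 1689 ± 294 FPKM in A-PDK1KO and 1579 ± 345 FPKM in control hearts (SD, n = 5 each).

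The tRNAs with lower means included 3 that lie shortly after the rRNAs on the same strand. mt-Tl1 measured 730, 731, 829, 725 and 826 FPKM in the A-PDK1KO hearts and 951, 821, 1129, 727 and 1176 FPKM in the control hearts. mt-Tm, the methionine tRNA, measured 733, 614, 960, 817 and 849 FPKM in the A-PDK1KO hearts and 1044, 1006, 1064, 742 and 1056 FPKM in the control hearts. For mt-Tm 4 of the 5 control hearts stood above every A-PDK1KO heart, and control replicate 4 lay among the A-PDK1KO values, as it did for both rRNAs. The log2 fold changes were -0.30 ± 0.12 for mt-Tl1 (limma adjusted p = 0.245), -0.30 ± 0.14 for mt-Ti, the isoleucine tRNA (adjusted p = 0.316), and -0.31 ± 0.12 for mt-Tm (adjusted p = 0.255). As a share of the mitochondrially encoded sum mt-Tl1 was 0.223 to 0.270% in A-PDK1KO and 0.280 to 0.383% in control hearts, which did not overlap, but it was not called (adjusted p = 0.297). Other tRNAs of the same region went the other way or hardly differed, such as mt-Tw at 0.11 ± 0.15 and mt-Tq, the glutamine tRNA of the other strand, at 0.19 ± 0.13. The genes mt-Ti and mt-Tm are shown because they lie on either side of mt-Tq between mt-Nd1 and mt-Nd2; the capitals in mt-Ti are bases shared with mt-Nd1 or mt-Tq, and mt-Tm has none.
mt-Ti, whole gene (chrM:3706-3774, + strand): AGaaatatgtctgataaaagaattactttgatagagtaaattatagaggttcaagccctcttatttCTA
mt-Tm, whole gene (chrM:3845-3913, + strand): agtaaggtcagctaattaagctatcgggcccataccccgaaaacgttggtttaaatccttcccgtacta

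Further along the genome, mt-Tg, the glycine tRNA, averaged 27.9 ± 5.4 FPKM in A-PDK1KO and 39.4 ± 10.3 FPKM in control hearts, from only 15 to 22 reads in A-PDK1KO and 16 to 34 reads in control hearts (log2 fold change -0.46 ± 0.18, limma adjusted p = 0.222). mt-Te, the glutamate tRNA beside mt-Nd6, averaged 88.0 ± 8.6 FPKM in A-PDK1KO and 77.1 ± 4.9 FPKM in control hearts (log2 fold change 0.19 ± 0.07, limma adjusted p = 0.248). Rows with few reads gave no more than presence or absence. mt-Tv, the valine tRNA between the rRNAs, had 1 read in A-PDK1KO replicate 3 and 1, 2 and 4 reads in control replicates 2, 3 and 5. mt-Tl2, the second leucine tRNA, had 116 reads (169 FPKM) in control replicate 4, 1 read in A-PDK1KO replicate 4 and 0 in the other 8 hearts, and its neighbour mt-Ts2 had 1 read, also in control replicate 4.

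**Figure D5:**
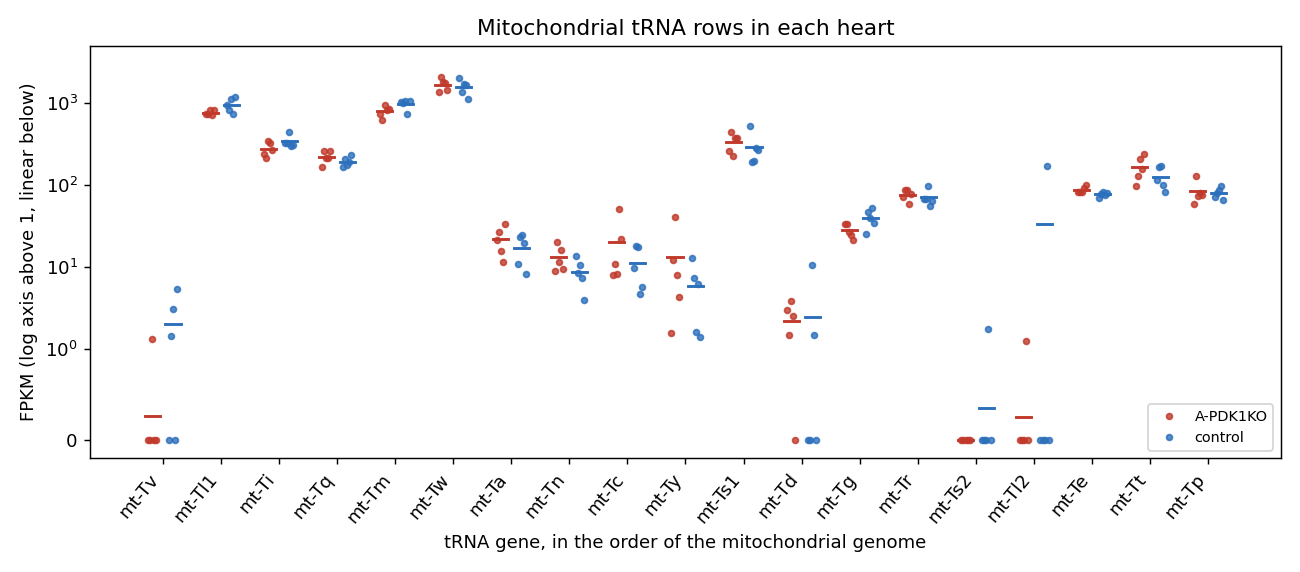
FPKM of each mitochondrial tRNA row in each heart, on an axis that is logarithmic above 1 FPKM and linear below, with genes in the order of the mitochondrial genome. Points are hearts (5 A-PDK1KO, 5 control) and lines are group means; mt-Tw is highest, mt-Tl1, mt-Ti and mt-Tm have lower means in A-PDK1KO hearts, and mt-Tl2 is at 169 FPKM in control replicate 4 alone.

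The mitochondrially encoded subunits assemble with subunits made from nuclear genes, and those were read from the same fit. Of 73 nuclear subunits of complexes I, III and IV and ATP synthase, 0 were called higher and 1 was called lower, against 1.21% of all genes higher and 0.871% lower. At an unadjusted p under 0.05 there were 0 higher and 25 lower, against 15.6% of all genes in either direction. That count was 18 on the TPM scale, 12 with median-of-ratios factors and 5 under a scaling that omits mitochondrially encoded and haemoglobin genes. The test on recovered reads (limma voom) called 3 lower, Ndufs6 with Atp5g1 and Atpif1. Atpif1 encodes an inhibitor of ATP synthase and not a subunit, but is counted among the 73 and among the 16 of ATP synthase. Ndufs6, a complex I subunit of the matrix arm, fell by 0.23 ± 0.05 on the log2 scale, with 331.2 ± 8.9 FPKM in A-PDK1KO and 390 ± 19 FPKM in control hearts (SD, n = 5 each; limma adjusted p = 0.0384). The call of Ndufs6 ended in all 10 fits with a heart left out (adjusted p 0.0567 to 0.103). Of the 8 heart muscle cell markers 0 lay above 0, with a median of -0.08. The same held for 4 atrial (median -0.33) and 5 red blood cell markers (median -0.27), with 0 called. Above 0 lay 4 of 5 endothelial, 3 of 6 fibroblast, 3 of 5 smooth muscle and pericyte and 1 of 5 macrophage markers. The part of cell content in the subunit values was not tested. Among the 73 genes of the subunit list 68 lay below 0, and their median was -0.10, against 0.02 for all genes tested. That median depended on the scaling, at -0.03 with 49 of 73 below 0 under the scaling without mitochondrially encoded and haemoglobin genes, where 0 of 73 was called against 3.91% of all genes. By complex, the medians were -0.09 for 36 subunits of complex I, -0.10 for 9 of complex III, -0.11 for 12 of complex IV and -0.11 for 16 of ATP synthase.

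The genes that make and handle mitochondrial RNA were read in the same way. Among 18 tested genes of mitochondrial DNA transcription and upkeep, 0 were called higher and 1 lower, against 1.21% of all genes higher and 0.871% lower, and the median was 0.06. The called gene was Slc25a4, the ADP/ATP carrier of heart and muscle, which is in the list because its human mutations disturb mitochondrial DNA upkeep. Slc25a4 fell by 0.29 ± 0.05 on the log2 scale, with 1888 ± 57 FPKM in A-PDK1KO and 2310 ± 76 FPKM in control hearts (SD, n = 5 each; limma adjusted p = 0.0127). Its call held with each heart left out (adjusted p 0.0189 to 0.0466) and ended on the TPM scale (0.0563), with median-of-ratios factors (0.0587), in the 6 hearts with Myl7 under 10 FPKM (log2 fold change -0.28, adjusted p = 0.376) and with scaling to the mitochondrially encoded sum (-0.33, adjusted p = 0.195). Among 30 tested genes of mitochondrial RNA processing, modification, stability and decay 0 were called by limma or by limma voom, 2 had an unadjusted p under 0.05 (both lower), and the median was -0.02, or 0.04 without mitochondrially encoded and haemoglobin genes in the scaling.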

How the data were processed

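RNA from the hearts of 10 mice, 5 A-PDK1KO and 5 control, was compared by genotype label. The deposited values are FPKM. Paired reads were checked with FastQC, per the labels' protocols, and the submitters' processing notes name Trimmomatic 0.38, HISAT2 2.1.0, featureCounts 1.6.3 and the build mm10. No annotation, strand setting or treatment of multiply matching reads is given in the sources used here. A deposited column of cluster numbers was not used.

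Reads behind the FPKM were recovered with union exon lengths of GENCODE mouse release 21 (mm10 coordinates). They were whole numbers (within 0.05 of a read) in every heart for 11585 of 11790 genes, all 34 members included. Because FPKM are not counts, the main test was limma 3.58.1 (R 4.3.3; empirical Bayes with trend, two-sided) on log2(FPKM + 1), for genes averaging 1 FPKM or more. The recovered reads were tested with limma voom as an alternative, which called 229 of 9808 genes, and each heart was left out in turn. The limma step was checked on simulated data. Sequences come from the GENCODE transcripts. Copies were sought there with BLAST+ 2.17.0 (identity of at least 95% over at least 100 aligned bases). Tables were handled in Python 3.11.15.

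The mitochondrially encoded members and the lists were chosen with earlier results of these data known. Every mt- row, its nuclear copies and called list members could be named. Depth was 9249256 to 11384423 counted reads per heart. The limma p-values set group differences against the spread between hearts, in which mouse, dissection and library cannot be told apart. Same-numbered hearts did not deviate together.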

Additional observations from a re-analysis of the deposited data

Results flagged for a closer look

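Among 86 groups of 5 hearts, 13 had a lowest or highest heart far from the other 4, where chance gives about 1 in 20 for normally spread values. In A-PDK1KO hearts these were mt-Co3 in replicate 4 (1929 FPKM, the lowest), mt-Ty in replicate 3 (40.5 FPKM), mt-Tv in replicate 3 (1.31 FPKM) and mt-Tl2 in replicate 4 (1.24 FPKM). In control hearts replicate 4 stood apart for mt-Nd1 (38670 FPKM), mt-Nd2 (26408 FPKM) and mt-Tm (742 FPKM), each the lowest of its group, and for mt-Tl2 (169 FPKM) and mt-Ts2 (1.75 FPKM), each the highest. Control replicate 3 stood apart for mt-Ti (442 FPKM) and mt-Td (10.6 FPKM), control replicate 1 for mt-Ts1 (526 FPKM) and control replicate 5 for the ratio of mt-Nd1 to mt-Cytb (0.909, the lowest). The values of mt-Tv, mt-Td, mt-Ts2 and mt-Tl2 rest on few reads, except the 116 reads of mt-Tl2 in control replicate 4. For the flagged mt-Tv, mt-Ts2 and mt-Tl2 values the other 4 hearts of the group held 0 reads. Any read is flagged there, so the rate of 1 in 20 does not apply.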

How the results depend on the processing

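Over 24 single-transcript results and 520 alternatives, 462 kept their direction and side of the threshold, 26 lost a call, 4 gained one and 28 turned direction. Of 208 genes called, alternatives gave 63 (TPM scale), 390 (scaling without mitochondrially encoded and haemoglobin genes, 82.8% of them higher, against 58.2% in the deposited scale and 49.3% with median-of-ratios factors), 28 (scaling to the mitochondrially encoded sum), 4 (the 6 hearts with Myl7 under 10 FPKM) and 57 to 150 with 1 heart left out. Members called were 0 with no filter, median-of-ratios factors, robust variances, atrial tissue as a covariate, the hearts with Myl7 under 10 FPKM, and gene and copy reads added. They were 2 with voom, 3 with scaling to the mitochondrially encoded sum, 3 without control replicate 4 and A-PDK1KO replicate 2, and 0 to 2 with 1 heart left out. Scaled to the mitochondrially encoded sum, 1 to 3 members were called with 1 heart left out. Over the smaller sum of rows outside the chromosome 1 stretch, the rRNA share differed by -3.99 and the mRNA share by 4.19 percentage points. The A-PDK1KO mean of the rRNA share divided by the control mean was 0.694 there, against 0.689 over all rows. Directions turned for fold changes near 0: mt-Nd1 (0.0055 TPM scale, 0.0645 without mitochondrially encoded and haemoglobin genes, -0.0474 to 0.0400 with 1 heart left out), mt-Co1 (0.0576 without those genes, -0.0523 to 0.0350 with 1 heart left out), mt-Co3 (-0.0083 without both hearts, 0.0462 to 0.250 with 1 heart left out), mt-Nd3 (-0.0025 median-of-ratios factors, -0.0448 hearts with Myl7 under 10 FPKM, -0.10 to 0.23 with 1 heart left out) and mt-Nd4l (-0.31 hearts with Myl7 under 10 FPKM, -0.64 without both hearts, -0.30 to 0.35 with 1 heart left out); the cause was not tested. Replicate numbers did not pair the hearts (correlations of deviations -0.12 to 0.09, 0 of 5 numbers matching best), and a replicate block called 153 genes and 1 member. tRNA rows with few reads and mRNAs in the copied stretch limit what depth can show.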

Other observations

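Nuclear copies on other chromosomes, at 95 to 98% identity, can be told from the mitochondrial genes by more bases. Gm13339, a chromosome 2 copy of part of mt-Nd2, averaged 76.2 ± 18.6 FPKM in A-PDK1KO and 47.5 ± 9.0 FPKM in control hearts (SD, n = 5 each; log2 fold change 0.66 ± 0.16 SE, limma adjusted p = 0.0576, and 0.0353 to 0.394 over other settings), and the groups overlapped. Gm13340, the copy of mt-Co1 beside it, averaged 180 ± 14 FPKM in A-PDK1KO and 172 ± 38 FPKM in control hearts. Gm29216, the chromosome 1 copy of the end of mt-Co1, ranged from 1532 to 2437 FPKM in A-PDK1KO and from 1382 to 7701 FPKM in control hearts, with control replicate 2 the highest.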
